A study of Mus musculus with 8 samples.

Results

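The 10 genes described here encode antioxidant enzymes and an electron donor: the 6 peroxiredoxins Prdx1 to Prdx6, the thioredoxin Txn1, the superoxide dismutases Sod1 and Sod2, and the catalase Cat. They were taken by gene symbol, and all 10 were found among the 18257 genes of the table. RNA came from wild-type mouse embryos of the morula stage, cultured in KSOM medium from the 4-cell stage with either 0.1% DMSO (control, 4 libraries) or 2 µM A485 (4 libraries), a compound that blocks the acetyltransferase activity of p300 and CBP. A DMSO content is stated for the control libraries only. Each library was a pool of 3 embryos, taken as 1 biological replicate, and separate litters or days of culture are not stated for the pools. The culture is described as running to the blastocyst stage, while every sample is labelled as a morula. The comparison asks how inhibition of p300 and CBP changed the transcripts of these enzymes.

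Superoxide is turned into hydrogen peroxide by superoxide dismutases, SOD1 in the cytosol and SOD2 in the mitochondrial matrix. Peroxiredoxins reduce the peroxide with a reactive cysteine, and thioredoxin, itself recharged by thioredoxin reductase and NADPH, returns most of them to the reduced state. PRDX1 and PRDX2 act mainly in the cytosol, PRDX3 in mitochondria, PRDX4 in the endoplasmic reticulum, PRDX5 in mitochondria, peroxisomes and cytosol, and PRDX6 is the family's 1-Cys member. Catalase breaks down hydrogen peroxide in peroxisomes. Embryos cultured outside the oviduct are a common setting for the study of these enzymes, since oxygen in culture usually exceeds that of the reproductive tract.

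In A485 embryos the transcripts of Prdx1, Prdx2, Prdx4, Prdx6, Sod1 and Cat rose and those of Prdx3, Prdx5 and Sod2 fell, while Txn1 did not pass the threshold. The 3 that fell encode proteins that work in mitochondria, PRDX5 among other sites. Fold changes ran from 5.51-fold higher for Prdx2 to 2.42-fold lower for Sod2. Calls come from the quasi-likelihood test of edgeR, adjusted by Benjamini-Hochberg over 12936 genes, at a threshold of 0.05, and 6 of 10 rose and 3 of 10 fell. Of all tested genes 29.7% rose and 25.0% fell. The median log2 fold change of the 10 genes was 1.14, and that of all tested genes 0.085. Libraries of the groups did not overlap for 9 of the 10 genes, as for 51.5% of all tested genes. In bulk RNA from pooled embryos, fewer cells of a type and less RNA per cell cannot be told apart.

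Of the windows from 250 bases before to 50 bases after the start site in RefSeq (GRCm38.p6), 9 of the 10 genes had an entry, and Prdx6 was the member without one. Stretches of 150 bases directly upstream of the start sites of the cytosolic pair and of the superoxide dismutase pair are shown because these pairs are compared below. They are given 5′ to 3′ on the strand of the gene, and capitals mark the core letters of the antioxidant response element, TGACNNNGC, searched on both strands. The stretches lie at chr4:116685449-116685598 for Prdx1, chr8:84969472-84969621 for Prdx2, chr16:90220612-90220761 for Sod1 and chr17:13007689-13007838 for Sod2, all on the plus strand.
Prdx1: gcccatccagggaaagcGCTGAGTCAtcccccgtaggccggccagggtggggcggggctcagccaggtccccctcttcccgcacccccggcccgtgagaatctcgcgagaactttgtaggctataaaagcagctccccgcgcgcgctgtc
Prdx2: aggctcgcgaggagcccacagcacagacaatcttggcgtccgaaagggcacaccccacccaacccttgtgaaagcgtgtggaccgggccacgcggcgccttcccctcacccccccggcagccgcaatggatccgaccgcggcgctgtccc
Sod1: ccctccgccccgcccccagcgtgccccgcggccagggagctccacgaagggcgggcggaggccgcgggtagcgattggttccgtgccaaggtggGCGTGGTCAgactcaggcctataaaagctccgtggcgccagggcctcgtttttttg
Sod2: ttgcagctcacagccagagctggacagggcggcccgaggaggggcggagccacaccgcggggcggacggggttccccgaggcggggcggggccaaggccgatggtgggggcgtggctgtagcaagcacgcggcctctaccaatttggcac

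The core was present in 2 of the 9 windows, Prdx1 and Sod1, and in 12.4% of all 32851 windows of the same length. Both matches lie on the strand opposite to the gene, tgactcagc for Prdx1 and tgaccacgc for Sod1. Read on the strand of the gene, their letters begin 133 and 56 bases before the start site. The match in Prdx1 also holds TGACTCA, the letters of an AP-1 element. The forkhead core TGTTTAC was in 0 of the 9 windows and in 3.65% of all windows. A match describes letters only, and both of these genes rose, as did others whose window holds no match.

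Prdx1 and Prdx2, the cytosolic peroxiredoxins, had the largest rises. Prdx1 (chromosome 4, 116685599 to 116700000, GRCm38.p6) measured 727, 634.5, 779 and 695 CPM in control replicates 1 to 4 and 2406, 2594, 3575 and 3952 CPM in A485 replicates 1 to 4, where CPM is the count per 1000000 after scaling by TMM composition factors. The groups were far apart, and A485 replicates 3 and 4 were the highest of all. The log2 fold change was 2.14 ± 0.19 (SE; edgeR adjusted p = 2.17e-05), a rise of 4.42-fold, with 4 of 4 A485 libraries above every control.

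Prdx2 (chromosome 8, 84969622 to 84976537) measured 76.3, 63.7, 78.3 and 82.3 CPM in the control libraries and 348, 373, 502 and 432 CPM in the A485 libraries. Its groups were far apart and its A485 libraries varied less, in relation to their mean, than those of Prdx6 or Cat. The log2 fold change was 2.46 ± 0.15 (SE; edgeR adjusted p = 7.46e-06), the largest among the 10 genes, and 8.9% of tested genes had a larger one. As annotated in the table, Prdx2 overlaps Junb on the opposite strand by 2054 bases and Rnaseh2a by 146. Junb, an AP-1 transcription factor gene, went from 4.07 ± 1.02 to 31.1 ± 20.7 CPM (mean ± SD of 4 libraries each) and Rnaseh2a from 117 to 68.2 CPM. No source used here states whether counting used strand, so reads of the overlapping stretches cannot be told apart. The estimated counts of Prdx2 were whole in every library, unlike those of Prdx5 described below. The part of reads from overlapping genes in the rise of Prdx2 was not tested.

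PRDX2 and catalase are abundant in red blood cells, so erythroid markers were read beside them. Summed over the 8 of 10 markers in the table, they measured 10.5 to 19.6 CPM in control and 106 to 337 CPM in A485 libraries. Most of this was Hba-a1, an alpha globin gene, at 12.3 ± 4.11 and 178 ± 103 CPM (mean ± SD of 4 libraries each). The defining markers Hbb-bs, Hbb-bt, Alas2 and Slc4a1 stayed under 1 CPM in every library, and Klf1 measured 1.72 ± 0.491 and 1.17 ± 0.507 CPM. Hba-a1 and Hba-a2 both passed the test as higher in A485. The part of erythroid RNA in the rises of Prdx2 and Cat was not tested.

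**Figure D1:**
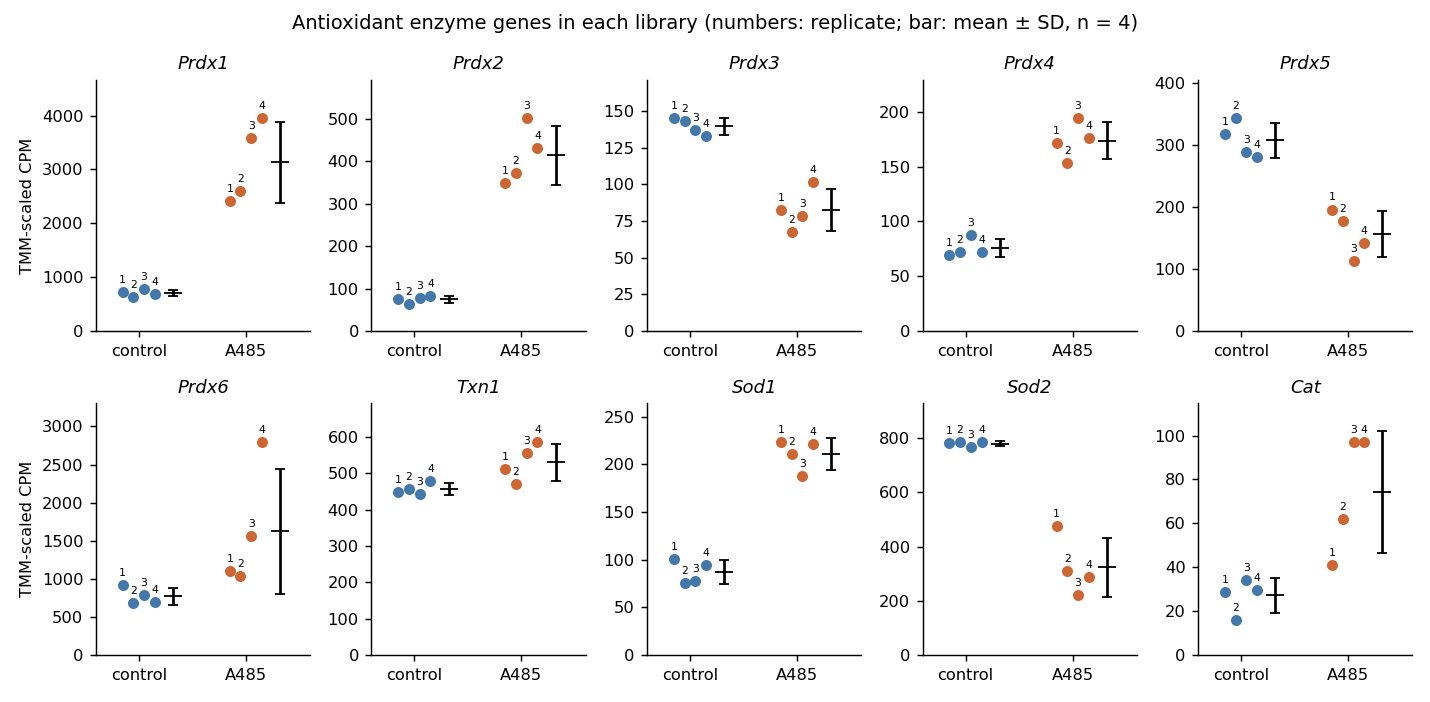
TMM-scaled CPM of each of the 10 genes (vertical axes, linear from 0, 1 scale per gene) in the 4 control (blue) and 4 A485 (orange) libraries; small digits are replicate numbers, and the black bar is the mean ± SD. The groups are apart in 9 panels, while for Txn1 the lowest A485 library (469.9 CPM) lies below the highest control (479.9 CPM).

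Prdx4 encodes the peroxiredoxin of the endoplasmic reticulum, where peroxide arises as disulfide bonds are formed. The gene (chromosome X, 155323918 to 155342272) measured 69.5, 72.3, 87.4 and 72.5 CPM in control and 171, 153, 194 and 176 CPM in A485 libraries. The 95% interval of its log2 fold change was 0.92 to 1.49 (edgeR adjusted p = 6.18e-05), with both groups narrow and well separated. A rise of 2.30-fold put it close to Sod1.

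Prdx6, whose product is reduced by glutathione rather than by thioredoxin, had the widest spread after treatment. The gene (chromosome 1, 161240112 to 161251210) measured 924, 687, 790 and 689 CPM in control and 1106, 1030, 1558 and 2799 CPM in A485 libraries. A485 replicate 4 stood well above the other three, and replicates 1 and 2 lay just above the highest control. The log2 fold change was 1.07 ± 0.30 (SE; edgeR adjusted p = 0.0114). It was 0.67 without A485 replicate 4 and 0.47 without A485 replicates 3 and 4, both still past the threshold (edgeR adjusted p = 0.0128 and 0.0304). The size of the rise in Prdx6 thus depended on which A485 libraries were counted.

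Prdx3 and Prdx5, whose products work in mitochondria, fell. Prdx3 (chromosome 19, 60864066 to 60874538) measured 145, 143, 137 and 133 CPM in control and 82.8, 67.3, 78.6 and 101.6 CPM in A485 libraries. The control libraries were tightly grouped and all 4 A485 libraries lay below them. Its log2 fold change was -0.76 ± 0.14 (SE; edgeR adjusted p = 0.00129), and -0.47 when libraries were scaled by total counts with no composition factor (edgeR adjusted p = 0.0121).

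Prdx5 (chromosome 19, 6906697 to 6910106) measured 318, 343, 289 and 281 CPM in control and 196, 177, 113 and 142 CPM in A485 libraries. A485 replicates 3 and 4 were the lowest, and the highest A485 library lay below the lowest control. The log2 fold change was -0.97 ± 0.17 (SE; edgeR adjusted p = 0.00101), a fall to 0.510 of the control level. Prdx5 overlaps Trmt112, which encodes an activator of methyltransferases, on the opposite strand by 409 bases. The estimated counts of Prdx5 were not whole in 8 of 8 libraries, so part of its reads had been shared out by the estimator. Trmt112 itself went from 223 ± 27.6 to 145 ± 44.5 CPM (mean ± SD of 4 libraries each; edgeR adjusted p = 0.0255), so reads taken for one gene and owed to the other cannot be told apart.

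**Figure D2:**
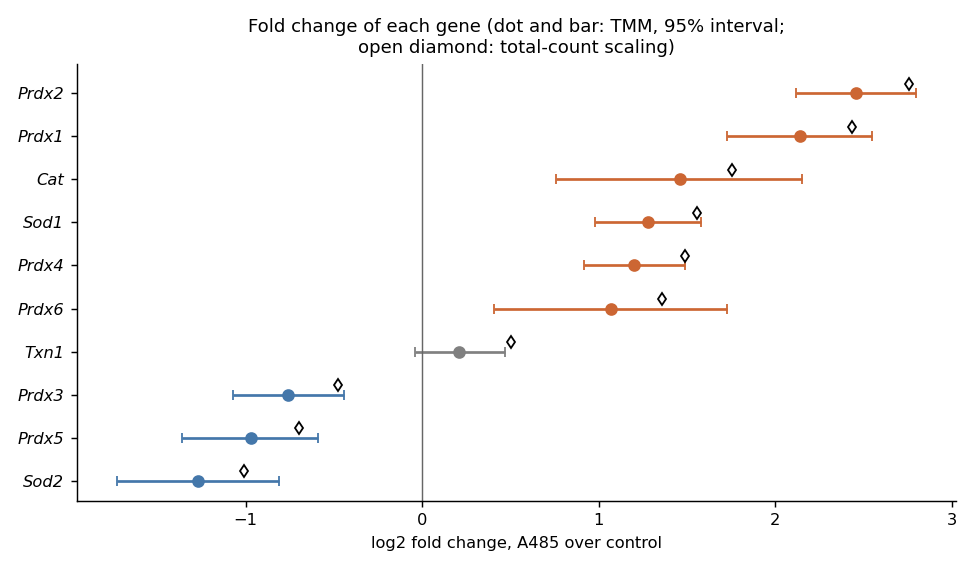
Log2 fold change of A485 over control (horizontal axis) for each gene, with dots and bars for the TMM-scaled edgeR estimate and its 95% interval, and open diamonds for the estimate with total-count scaling; orange is higher, blue lower and grey not past the threshold. Under both scalings Prdx2 has the largest rise and Sod2 the largest fall, and the interval of Txn1 includes 0 with TMM scaling.

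The superoxide dismutases moved in opposite directions. Sod1 (chromosome 16, 90220754 to 90226333) measured 101, 75.6, 77.8 and 93.9 CPM in control and 224, 211, 187 and 222 CPM in A485 libraries. Its log2 fold change was 1.28 ± 0.14 (SE; edgeR adjusted p = 5.63e-05), with little spread among the A485 libraries. Ccs, which encodes the chaperone that delivers copper to SOD1, fell from 94.6 ± 3.94 to 52.0 ± 7.92 CPM (mean ± SD of 4 libraries each; edgeR adjusted p = 5.47e-04). Sod1 overlaps Scaf4 on the opposite strand by 654 bases, and Scaf4 measured 269 ± 45.3 and 282 ± 88.5 CPM (mean ± SD of 4 libraries each; edgeR adjusted p = 0.819). The estimated counts of Sod1 were whole in every library.

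Sod2 (chromosome 17, 13007839 to 13020124), the manganese enzyme of the mitochondrial matrix, measured 781.5, 785.5, 769 and 787 CPM in control and 474.5, 310.2, 220 and 288 CPM in A485 libraries. The control libraries were nearly level, and every A485 library lay far below them, with A485 replicate 1 the least changed. The log2 fold change was -1.27 ± 0.21 (SE; edgeR adjusted p = 5.85e-04), and 11.3% of tested genes had a more negative one. The estimated counts of Sod2 were also not whole in 8 of 8 libraries.

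Within each library the ratio of Sod1 to Sod2 does not depend on how libraries are scaled against each other. On the TPM scale, which is per transcript length, this ratio was 0.915 ± 0.130 in control and 5.72 ± 1.37 in A485 libraries (mean ± SD of 4 libraries each). Transcripts of the cytosolic enzyme were thus about as abundant as those of the mitochondrial one in control embryos and the more abundant in all A485 libraries. The log2 ratio was higher by 2.62 (exact two-sided permutation test over 70 assignments, p = 0.0286, the smallest this design can give; 0.0857 after adjustment over 3 pairs). For Prdx1 to Prdx2 the log2 ratio went from 3.28 ± 0.11 to 2.95 ± 0.19 (mean ± SD of 4 libraries each; exact permutation p = 0.0571, adjusted 0.0857). It was 2.83, 2.84 and 2.88 in A485 replicates 1 to 3 and 3.24 in A485 replicate 4, which lay within the control range of 3.12 to 3.35. For Prdx3 to Prdx5 it went from -1.35 ± 0.09 to -1.13 ± 0.47 (mean ± SD of 4 libraries each; exact permutation p = 0.4, adjusted 0.4). Here A485 replicate 1, at -1.46, lay within the control range of -1.48 to -1.29, replicate 2 below it at -1.61, and replicates 3 and 4 above it at -0.75 and -0.70. None of the 3 ratios passed a threshold of 0.05 after adjustment. Only the Sod1 to Sod2 pair reached the smallest exact permutation p, 0.0286. Its adjusted p of 0.0857 came from that limit and from the p-values of the other pairs. The adjusted p of the Sod1 to Sod2 ratio therefore does not measure the size of its difference.

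**Figure D3:**
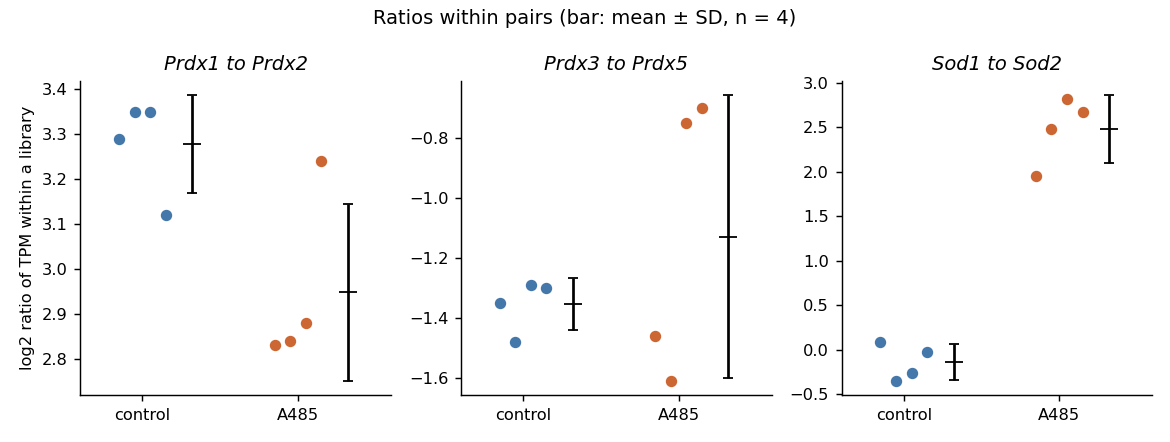
Log2 ratio of TPM within a library (vertical axes, 1 scale per panel) for 3 pairs of genes in control (blue) and A485 (orange) libraries, with the mean ± SD as a black bar. The Sod1 to Sod2 ratios of the groups are far apart (-0.35 to 0.09 in control, 1.95 to 2.82 in A485), while those of the other pairs overlap.

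Cat, the gene of the peroxisomal catalase (chromosome 2, 103453904 to 103485153), was the least abundant of the 10. It measured 28.9, 15.9, 34.1 and 29.6 CPM in control and 41.0, 62.1, 97.1 and 97.2 CPM in A485 libraries, from 352 to 2855 counts. A485 replicate 1 lay just above the highest control, and replicates 3 and 4 were about level with each other. The log2 fold change was 1.46 ± 0.31 (SE; edgeR adjusted p = 0.00293), and 0.93 without A485 replicates 3 and 4 (edgeR adjusted p = 0.021).

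Txn1 (chromosome 4, 57943373 to 57956411), the cytosolic thioredoxin, measured 449.6, 457, 442 and 479.9 CPM in control and 511, 469.9, 555 and 586.5 CPM in A485 libraries. The groups overlapped through A485 replicate 2, whereas in TPM they did not (481 to 518 in control, 599 to 845 in A485). Its log2 fold change was 0.21 ± 0.12 (SE; 95% interval -0.04 to 0.47; edgeR adjusted p = 0.143), so a rise beyond 0.47 lies outside the interval under this scaling. The call depended on the scaling between libraries. With total counts and no composition factor the log2 fold change of Txn1 was 0.50 (edgeR adjusted p = 0.00447), and under that scaling 38.1% of all tested genes rose and 17.8% fell, with a median of all genes of 0.372. Txn1 also passed with upper-quartile factors (0.31, edgeR adjusted p = 0.0412), with a filter of 5 CPM in 4 libraries (0.34, 0.0204) and without A485 replicates 1 and 2 (0.30, 0.0405). The directions of the other 9 genes were the same under total-count scaling, and all 9 passed.

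Levels of different genes can be set side by side only per length, in the authors' TPM. In control embryos the order by mean TPM was Prdx1 (543 ± 65.4), Txn1 (499 ± 18.2), Prdx6 (399 ± 58.3), Prdx5 (267 ± 20.3), Sod2 (201 ± 5.74), Sod1 (184 ± 24.1), Prdx3 (104 ± 4.43), Prdx4 (89.7 ± 13.5), Prdx2 (56.0 ± 6.93) and Cat (10.8 ± 3.39; mean ± SD of 4 libraries each). The ranges of Prdx1 and Txn1, of Sod2 and Sod1, and of Prdx3 and Prdx4 overlapped, and the other neighbours in this order were apart. In A485 embryos the order was Prdx1 (3011 ± 859), Prdx6 (1042 ± 505), Txn1 (724 ± 106), Sod1 (555.5 ± 35.4), Prdx2 (387 ± 99.5), Prdx4 (258 ± 44.3), Prdx5 (168 ± 31.2), Sod2 (101.3 ± 23.0), Prdx3 (76.6 ± 12.0) and Cat (37.5 ± 15.9; mean ± SD of 4 libraries each). There the ranges of Prdx6 and Txn1, of Sod1 with Prdx2, of Prdx2 with Prdx4, and of Sod2 and Prdx3 overlapped. Prdx2 went from the ninth to the fifth place, and Sod2 from the fifth to the eighth.

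Summed over the 6 peroxiredoxins, TPM lay between 1345 and 1605 in control and between 3339 and 6220 in A485 libraries, or 0.146% ± 0.0126 and 0.494% ± 0.139 of all TPM (mean ± SD of 4 libraries each). TPM carries no composition factor, unlike the CPM behind the calls. TMM factors were 0.877 to 0.935 in control and 0.996 to 1.213 in A485 libraries, so rises between the groups read larger in TPM. Prdx1 made up 37.2% ± 2.04 of the sum in control and 60.9% ± 2.54 in A485 libraries. The part of Prdx3 and Prdx5 together was 25.6% ± 2.62 and 5.35% ± 1.90, and the part of Prdx2 was 3.45% to 4.45% and 6.18% to 8.71%. Prdx6 held 27.2% ± 2.27 and 20.4% ± 4.95, and Prdx4 6.15% ± 0.629 and 5.41% ± 1.05. These shares restate the changes of single genes and carry no test of their own.

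**Figure D4:**
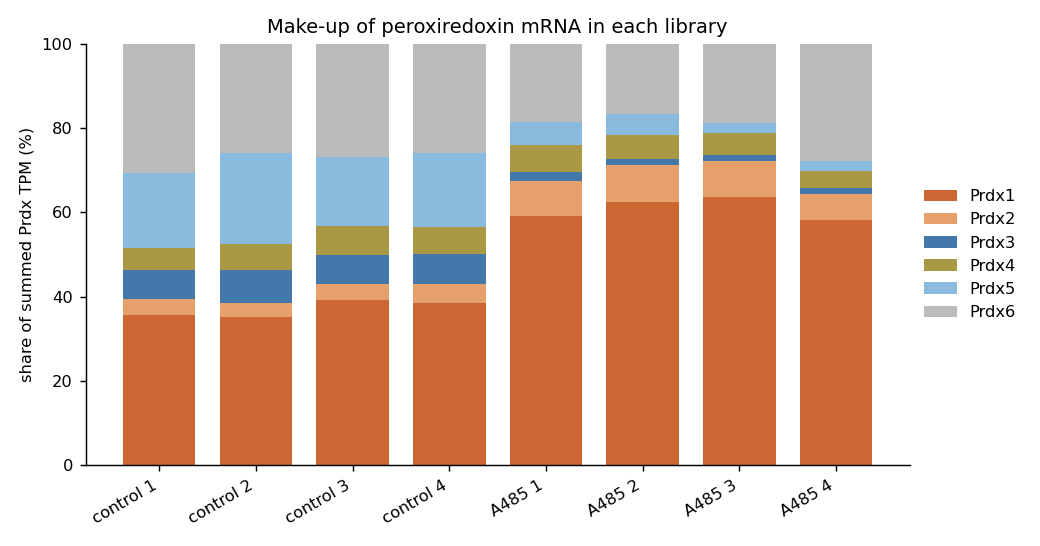
Share of each peroxiredoxin in the summed TPM of Prdx1 to Prdx6 (vertical axis, percent), with 1 stacked bar per library. Prdx1 takes 35.2% to 39.3% in the control libraries and 58.3% to 63.6% in the A485 libraries, and the blue parts of Prdx3 and Prdx5 shrink in every A485 library.

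The partners of these enzymes were read from the same fit. Of 24 tested thioredoxin-fold partners 12 rose and 4 fell, with a median log2 fold change of 0.47. Over all tested genes 29.7% rose and 25.0% fell. Txn2, the mitochondrial thioredoxin that serves PRDX3, fell from 395 ± 6.87 to 246 ± 63.8 CPM (mean ± SD of 4 libraries each; edgeR adjusted p = 0.00777), with a log2 fold change of -0.68 that was -0.413 under total-count scaling. In TPM the groups of Txn2 overlapped, with 334.4 in A485 replicate 4 and 331.7 in control replicate 4. Txnrd1, the cytosolic reductase of thioredoxin, rose from 40.7 ± 7.58 to 95.7 ± 28.8 CPM (edgeR adjusted p = 0.00117). Its mitochondrial counterpart Txnrd2 differed by 0.39 ± 0.17 on the log2 scale (SE; edgeR adjusted p = 0.0796) and passed under total-count scaling (0.70, 0.0143), with upper-quartile factors (0.49, 0.0425) and with the 5 CPM filter (0.525, 0.0333). It was 0.25 without A485 replicate 3. Txnip, an inhibitor of thioredoxin, rose from 0.538 ± 0.200 to 5.55 ± 1.93 CPM (edgeR adjusted p = 1.06e-04). Of the glutaredoxins, the mitochondrial Glrx5 rose by 1.34 ± 0.16 (SE) and Glrx3 fell by 0.94 ± 0.12 (SE) on the log2 scale. The other glutaredoxin genes of the list, Glrx and Glrx2, were also called as higher in A485.

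Of 10 tested genes for the repair of oxidised residues and for other superoxide dismutase functions, 2 rose and 2 fell, with a median of -0.22. Over all tested genes the shares were 29.7% and 25.0%. Srxn1, the sulfiredoxin that restores overoxidised typical 2-Cys peroxiredoxins, rose from 5.81 ± 2.38 to 43.6 ± 12.7 CPM (mean ± SD of 4 libraries each), or by 2.91 ± 0.34 on the log2 scale (SE; edgeR adjusted p = 9.39e-05). Sesn1, a sestrin gene, fell by 1.07 ± 0.23 on the log2 scale (SE). The number that rose was 1 with the 5 CPM filter and 1 without control replicate 4. It was 3 under total-count scaling, where 38.1% of all tested genes rose, and 3 with no filter on low counts.

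In the endoplasmic reticulum, where PRDX4 works, 9 of 17 tested genes of oxidative folding rose and 1 fell, with a median of 0.68. Over all tested genes the shares were 29.7% and 25.0%. Ero1l, the oxidase that forms disulfides and releases hydrogen peroxide, rose from 15.1 ± 2.85 to 219 ± 94.1 CPM (mean ± SD of 4 libraries each; edgeR adjusted p = 4.09e-05). Gpx7, a peroxidase of the same compartment, rose from 5.45 ± 1.37 to 25.1 ± 3.51 CPM. Pdia5, a disulfide isomerase gene, fell from 166 ± 15.3 to 25.5 ± 5.60 CPM (edgeR adjusted p = 7.61e-06).

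Of 31 tested peroxisome genes 8 rose and 6 fell, with a median of 0.36, shares close to those of all genes. Acaa1b and Ehhadh, enzymes of fatty acid breakdown, rose by 2.42 ± 0.24 and 4.74 ± 0.63 on the log2 scale (SE), the latter from 0.155 to 4.27 CPM. Pex10, needed for protein import into peroxisomes, fell by 1.46 ± 0.21 on the log2 scale (SE). Pex5, the receptor that carries catalase into the organelle, differed by 0.61 ± 0.29 on the log2 scale (SE; edgeR adjusted p = 0.0956). The value for Pex5 was 0.34 without A485 replicate 3 and 0.004 without A485 replicates 3 and 4, and it passed without A485 replicate 2 (0.80, edgeR adjusted p = 0.0262), under total-count scaling (0.915, 0.0317) and when A485 replicates 1 and 2 were both left out (1.015, 0.00204). Of the peroxisome genes 14 rose under total-count scaling, where 38.1% of all tested genes rose. With A485 replicates 1 and 2 left out 13 rose, among 4292 of 13701 genes in all.

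Among regulators of antioxidant genes 6 of 17 tested rose and 4 fell, with a median of 0.07. These shares are near the 29.7% and 25.0% of all tested genes. Nfe2l2, which encodes NRF2, the factor that binds antioxidant response elements, rose from 41.3 ± 4.48 to 69.6 ± 20.6 CPM (mean ± SD of 4 libraries each; edgeR adjusted p = 0.0112). Its log2 fold change of 0.75 ± 0.21 (SE) was 0.34 without A485 replicates 3 and 4, where it did not pass (edgeR adjusted p = 0.0875). Keap1, the adaptor that sends NRF2 for degradation, measured 16.7 ± 2.54 and 15.5 ± 2.52 CPM (edgeR adjusted p = 0.634). Cul3, the ligase scaffold bound by KEAP1, and Sqstm1, which encodes p62, rose by 1.44 ± 0.21 and 1.30 ± 0.18 on the log2 scale (SE). Foxo4, a forkhead factor gene, rose from 0.121 to 4.81 CPM.

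Of the peroxide sources 6 of 14 in the table passed the filter on low counts. Of these 4 rose and 0 fell in edgeR, with 2 not past the threshold, where 29.7% of all tested genes rose and 25.0% fell. Without the filter 7 rose and 1 fell, and in DESeq2 6 rose and 1 fell. Over all 18244 genes, 4082 rose and 3461 fell without the filter, and 4490 rose and 3613 fell in DESeq2. Maoa, a monoamine oxidase of the outer mitochondrial membrane, and Rac1, a small GTPase, rose by 3.00 ± 0.35 and 2.45 ± 0.38 on the log2 scale (SE).

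**Figure D5:**
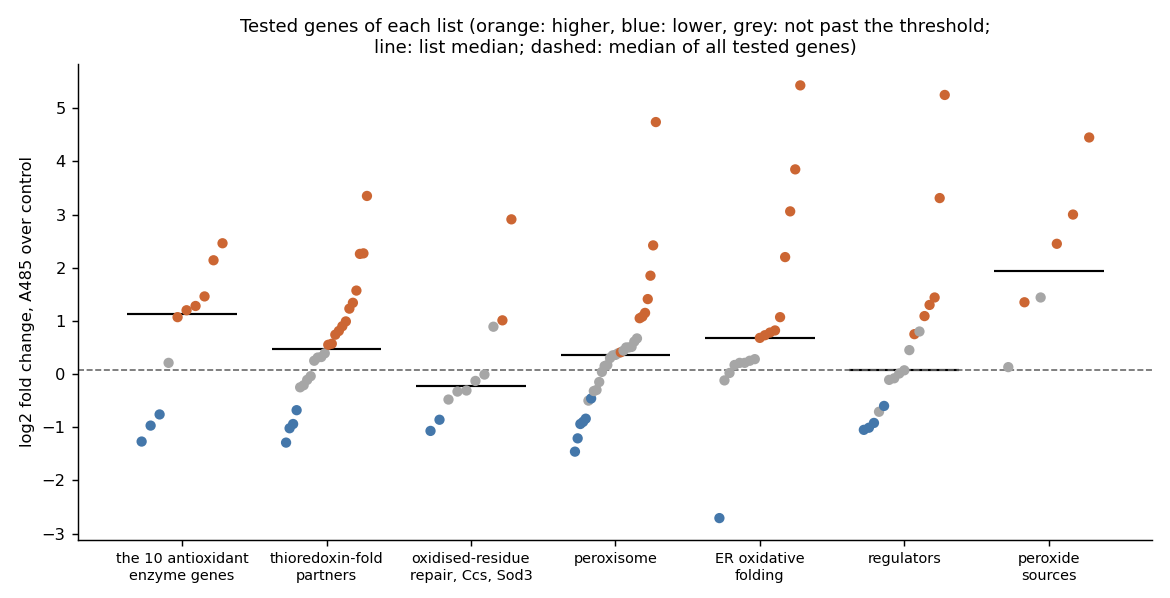
Log2 fold change of A485 over control (vertical axis) for each tested gene of the 10 genes and of 6 lists of partner genes; orange is higher, blue lower and grey not past the threshold, black lines are list medians and the dashed line is the median of all tested genes, 0.085. Medians run from -0.22 for the repair list to 1.95 for the 6 tested peroxide sources.

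For the gene with the largest rise and the one with the largest fall, the genes of most similar profile over the 8 libraries were found by the root mean square difference of log2 CPM, each gene centred on its own mean. For Prdx2 they were Cfap36 (0.125), Cltb (0.154), which encodes a clathrin light chain, and Fam120b (0.187), and the nearest of the other 9 enzymes was Prdx1 (0.217). For Sod2 they were Mrto4 (0.032), a ribosome assembly gene, Gch1 (0.081), which encodes GTP cyclohydrolase 1, and Pa2g4 (0.088), and the nearest of the other 9 was Prdx5 (0.218). Mrto4 went from 512.5 ± 11.6 to 214 ± 71.0 CPM (mean ± SD of 4 libraries each), where the fitted log2 difference was -1.26 ± 0.20 (SE).

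Total estimated counts lay between 23641781 and 25677701 per library. A485 libraries differed more among themselves than control libraries, with a chi-square per degree of freedom over genes of 61.7 to 215 against 20.2 to 35.9 for pairs of replicates. It was 69.0 for A485 replicates 1 and 2, 61.7 for replicates 3 and 4, and 124.1 to 214.6 for the other A485 pairs. Of 15 markers of the early embryo, all tested, 12 fell and 2 rose in A485, and their summed level was 12380 to 13940 CPM in control and 5075 to 8101 CPM in A485 libraries. Over all tested genes 25.0% fell and 29.7% rose. Dppa3 and Dppa5a, genes of pluripotent cells, made up most of the control sum, and the keratin genes Krt8 and Krt18 were the 2 that rose. The trophectoderm gene Cdx2 fell from a mean of 50.8 ± 10.9 to 1.94 ± 1.175 CPM, and the pluripotency gene Pou5f1 from 845 ± 98.5 to 292.5 ± 79.3 CPM (mean ± SD of 4 libraries each). The part of these markers in the changes of the enzymes was not tested. Markers of cumulus or granulosa cells summed to 24.1 to 41.1 and 29.1 to 50.5 CPM, most of it Amhr2, which did not pass. Of 14 listed, 3 were tested, and 2 of these, Inha and Kitl, rose. Inha measured 0 CPM in every control library and 1.46 ± 0.597 CPM in A485, and Kitl 0.217 ± 0.153 and 0.936 ± 0.389 CPM. Genes this low in control passed the filter on low counts only through A485 libraries, so their calls could only be rises. Oocyte markers summed to 35.7 to 44.8 and 18.8 to 30.4 CPM. Of 9 tested, Padi6 fell from 25.8 ± 5.76 to 3.14 ± 1.31 CPM, and 4 rose (Figla, Mos, H1f8 and Kit), each with a mean under 2 CPM in both groups. Mos measured 0 CPM in every control library, so its call too could only be a rise, and Figla and Kit averaged 0.302 and 0.267 CPM there.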

How the data were processed

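The authors deposited 1 table with, per the file headers, an estimated count, TPM, FPKM and a normalised count (a scaled signal) for each library, and their log2 fold change with a p-value and q-value. Per the submitters' processing notes, the build was GRCm38.p6, and RSEM 1.2.28, HISAT2 2.2.1 and DESeq2 1.40.2 are listed. All genes are of type mRNA. Estimated counts (18.2% of the deposited values not whole) were rounded and entered edgeR 4.0.16, run in R 4.3.3 (filterByExpr, TMM, robust quasi-likelihood, group as the only term). A check on simulated data gave both groups the spread of the controls and changed few genes. It does not cover the wider spread of the A485 libraries or the large share of genes called. An SE is the absolute log2 fold change over the square root of F. TPM served for levels and for within-library ratios, on log2(TPM + 0.1), in Python 3.11.15. FPKM and normalised counts of the authors were not used in any test. In the authors' deposited table, q is 0.237 for Txn1 and 0.00226 or less for the other 9 genes.

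The 10 genes, the gene lists and the tests were chosen with earlier results of these data known. Named genes are the 10, fixed partners (among them Txn2, Txnrd1, Pex5 and Keap1), up to 3 called genes of smallest p per list, and the 3 genes of nearest profile with average log2 CPM of at least 3. Alternatives were DESeq2 1.42.0, limma-voom 3.58.1 with and without group weights, other scalings and filters, a replicate block, and leaving out libraries. The correlation of deviations between same-numbered libraries was 0.005 to 0.104, so numbers were not taken as pairs. No 2 replicates agreed within sampling noise. p-values measure the spread between pools, and 4 against 4 limits a permutation p to 0.0286. Near-identical processed pseudogenes (at least 95% identity over 200 bases, GENCODE vM21) exist for Prdx1 (2), Prdx2, Txn1 and Sod1 (1 each), so their counts are uncertain to that extent. Counts do not separate PCR copies from molecules. Protein sequences were not used here. Values of 2 genes of the lists are not reported here.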

Additional observations from a re-analysis of the deposited data

Results flagged for a closer look

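In the control group, replicate 3 had 87.4 CPM of Prdx4, far from the 69.5 to 72.5 CPM of the other 3 control libraries, and every A485 library lay above it. In the A485 group, replicate 4 had a log2 ratio of Prdx1 to Prdx2 of 3.24, far from the 2.83 to 2.88 of the other 3. These 2 were found among 26 groups of 4 values, where about 1 in 20 groups would stand out by chance.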

How the results depend on the processing

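Under 20 alternatives, 196 of 200 fold changes of the 10 genes kept their direction and their side of the threshold, and the other 4 are the calls of Txn1 given above; 0 reversed. In each alternative 6 or 7 of the 10 genes rose and 3 fell. With the replicate block, 6 rose and 3 fell, among 6671 genes called against 7077 without it, so the block changed no call among the 10. Keap1, not past the threshold in any setting, had log2 fold changes of 0.166 under total-count scaling, 0.012 with the 5 CPM filter and 0.013 without A485 replicates 3 and 4, against -0.11. Leaving out each library in turn, the log2 ratio of Sod1 to Sod2 differed between groups by 2.506 to 2.795 and that of Prdx1 to Prdx2 by -0.427 to -0.292. Both passed after adjustment without A485 replicate 4 (exact permutation, adjusted p = 0.0429). That library was the only A485 library whose Prdx1 to Prdx2 ratio lay within the control range, so leaving it out parted the groups. The Sod1 to Sod2 difference was 2.556 there, against 2.62 with all libraries. Its pass came from the adjustment, with both pairs at the smallest p, and says nothing further about this ratio. The replicate block on ratios limits p to 0.125. Cat had the fewest counts (352 in 1 control library), so its level is the least precise for counting.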
